A study of Homo sapiens with 2 samples.

Results

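Transcripts of METTL2A, METTL2B, METTL6 and DALRD3 were examined in RNA-seq libraries of HEK293 cells. Every listed transcript of the 4 genes was taken, by matching transcript identifiers without version to the GENCODE v44 annotation (GRCh38). This gave 36 of the 206696 transcripts listed, of which 25 were above 0 in both libraries, 5 in 1 library and 6 in none. HEK293 is an established human embryonic kidney line. The cells were its Flp-In T-Rex derivative, which has a single genomic site for tetracycline-controlled transgenes. No treatment or other genotype was labelled, so there was 1 group of 2 libraries (replicates 1 and 2) from total RNA depleted of rRNA. Whether the replicates were separate cultures was not stated, so their spread may be technical. The libraries held 25158962 and 27143860 estimated counts. All 7 markers of the line reached 10 normalised counts, among them VIM, KRT8, NEFL and PAX2, with summed levels of 21857 and 20868 normalised counts. Among 6 markers of other cell types, PTPRC, CD3E and ALB were listed at 0, and 2 fibroblast collagen genes reached 10, with sums over the list of 175.5 and 310.5.

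METTL2A and METTL2B are near-identical methyltransferases that place 3-methylcytidine (m3C) in the anticodon loop of cytosolic threonine and arginine tRNAs. METTL6 does so in serine tRNAs, together with seryl-tRNA synthetase. DALRD3, named for a domain it shares with arginyl-tRNA synthetase, directs METTL2A and METTL2B to arginine tRNAs. Each gene yields several transcripts. Some encode the full protein, some encode proteins with another start or end, and some keep an intron or carry an early stop codon that marks them for nonsense-mediated decay. The values were used to ask which of these forms the cells held, gene by gene.

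For each transcript the tables give an estimated count from RSEM, a program that splits a read among all transcripts it could come from. They also give a normalised count, in which each library's estimated counts are scaled by a single size factor. A share is a transcript's percentage of its gene's summed counts in a library and is the same in both units. Shares carry exact 95% Clopper-Pearson intervals of counting error only, and a count of 0 is given the limit that 3 counts set. A transcript was called leading when it was the highest in both libraries and its mean share exceeded the next by more than the sum of the SDs. With 1 group of 2 libraries no test between groups was possible, and a two-sided exact sign-flip test could not go below p = 0.5. In these bulk libraries, a transcript present in all cells and one held at a higher level by fewer cells cannot be told apart.

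The sequences that separate the forms were read from GRCh38, 5′ to 3′ on the strand of the gene. The first is exon 2, whose presence or absence separates the 2 main coding forms of METTL2A and METTL2B. It lies at chr17:62424219-62424310 in METTL2A and chr7:128477082-128477173 in METTL2B, both on the plus strand, is coding, has 92 nt and did not differ between the genes.
Exon 2: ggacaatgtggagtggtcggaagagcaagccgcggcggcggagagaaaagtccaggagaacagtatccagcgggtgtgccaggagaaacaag
Transcripts without it join exon 1 to exon 3. The 30 nt around this junction, with exon 3 in capitals, were the same in both genes. The annotated start codon of these transcripts, at position 116 of the transcript, is the atg in the exon 1 part.
Junction without exon 2: ccaccacaatgcctgTTGATTATGAGATCA
Intron 1, which is kept whole in METTL2A-202 and METTL2B-206, has 206 nt in both genes and differed at 7 bases, shown in capitals. It lies at chr17:62424013-62424218 and chr7:128476876-128477081.
METTL2A intron 1: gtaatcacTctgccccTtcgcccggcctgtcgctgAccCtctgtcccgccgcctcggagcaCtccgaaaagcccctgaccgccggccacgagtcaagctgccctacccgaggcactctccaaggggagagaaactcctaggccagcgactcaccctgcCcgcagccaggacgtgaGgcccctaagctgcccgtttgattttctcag
METTL2B intron 1: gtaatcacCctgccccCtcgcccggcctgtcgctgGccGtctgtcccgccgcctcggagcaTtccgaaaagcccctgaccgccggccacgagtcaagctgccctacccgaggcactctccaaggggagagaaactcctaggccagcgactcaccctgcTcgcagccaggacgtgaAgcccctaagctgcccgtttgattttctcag
METTL2B-207 has an additional exon of 44 nt in intron 2, at chr7:128477949-128477992, in which its reading frame ends.
METTL2B-207 extra exon: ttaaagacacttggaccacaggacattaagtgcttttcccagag
METTL6-201 and METTL6-205 carry an 86-nt coding exon at chr3:15415498-15415583 (minus strand) that is absent from the MANE Select transcript, the representative that Ensembl and RefSeq chose jointly. Both lack exons 5 and 6 of the MANE Select transcript and end in other last exons, of 541 nt in METTL6-201 and 277 nt in METTL6-205.
METTL6 alternative exon: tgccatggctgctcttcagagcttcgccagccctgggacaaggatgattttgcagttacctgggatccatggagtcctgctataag
In DALRD3, the MANE Select transcript and DALRD3-206 differ at the start of exon 10 by 26 nt (chr3:49016061-49016086, minus strand), shown in capitals with 10 nt on either side. The preceding intron and the 26-nt segment end in the same 6 bases, caacag.
DALRD3 segment: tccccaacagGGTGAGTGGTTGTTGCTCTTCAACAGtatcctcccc

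METTL2A was led by a transcript annotated as retaining an intron. The gene (ENSG00000087995, chr17:62423875-62453385, plus strand) had 4 listed transcripts with totals of 1650 and 1398 normalised counts in the libraries (1524 ± 178, SD, n = 2). METTL2A-202, which keeps intron 1 between exons 1 and 2, held 810.5 and 800.2 normalised counts. Its share was 49.1% (46.6 to 51.6) in replicate 1 and 57.3% (54.7 to 59.8) in replicate 2, a mean of 53.2% ± 5.75, and the intervals of the libraries did not overlap. It was called leading, at 1.89-fold and 2.20-fold the next transcript. No protein is annotated for it. Total RNA may hold RNA not yet spliced. Whether the reads of retained introns, here and in the other genes, came from such RNA was not tested.

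METTL2A-204, which skips exon 2, was next. It held 429.1 and 363.8 normalised counts, and its share of 26.0% in both libraries (26.0% ± 0.0154) was the steadiest of the gene. The MANE Select transcript METTL2A-201, the only one for the full protein of 378 residues, held 377.98 and 210.01 normalised counts. Its share was 22.9% (20.8 to 25.1) and 15.0% (13.2 to 16.9), so it was lower in replicate 2 with intervals that did not overlap, and its mean was 19.0% ± 5.57. A short second retained-intron transcript, METTL2A-203, held 1.83% ± 0.193. Protein-coding transcripts together took 48.9% and 41.1% of the gene's counts (45.0% ± 5.56).

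By count, METTL2B was led by the transcript without exon 2. The gene (ENSG00000165055, chr7:128476729-128506602, plus strand) had 7 listed transcripts and summed to 3558 and 2848 normalised counts (3203 ± 502). METTL2B-204 held 1752 and 1490 normalised counts. Its shares were 49.3% (47.5 to 50.9) and 52.3% (50.5 to 54.1), or 50.8% ± 2.17, and it was called leading at 1.70-fold and 2.52-fold the next. The MANE Select transcript METTL2B-201, for the full protein of 378 residues, held 1030.5 and 592.1 normalised counts. As in METTL2A, its share was lower in replicate 2, at 29.0% and then 20.8% (24.9% ± 5.78).

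The retained-intron form METTL2B-206 and the decay form METTL2B-207 made up most of the rest. METTL2B-206 held 362.1 and 470.8 normalised counts, and its share was higher in replicate 2 (10.2% and 16.5%, mean 13.4% ± 4.49). METTL2B-207 held 381.9 and 252.8 normalised counts (10.7% and 8.87%, mean 9.80% ± 1.31). It is annotated as a target of nonsense-mediated decay, and its 76-residue product shares the first 68 residues of METTL2B. The remaining METTL2B-202, METTL2B-203 and METTL2B-205 are short models that lack exons 1 and 2 and all or most of exon 3, and held 0.879% and 1.49% together. Protein-coding transcripts took 79.0% and 74.2% of METTL2B (76.6% ± 3.36).

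**Figure D1:**
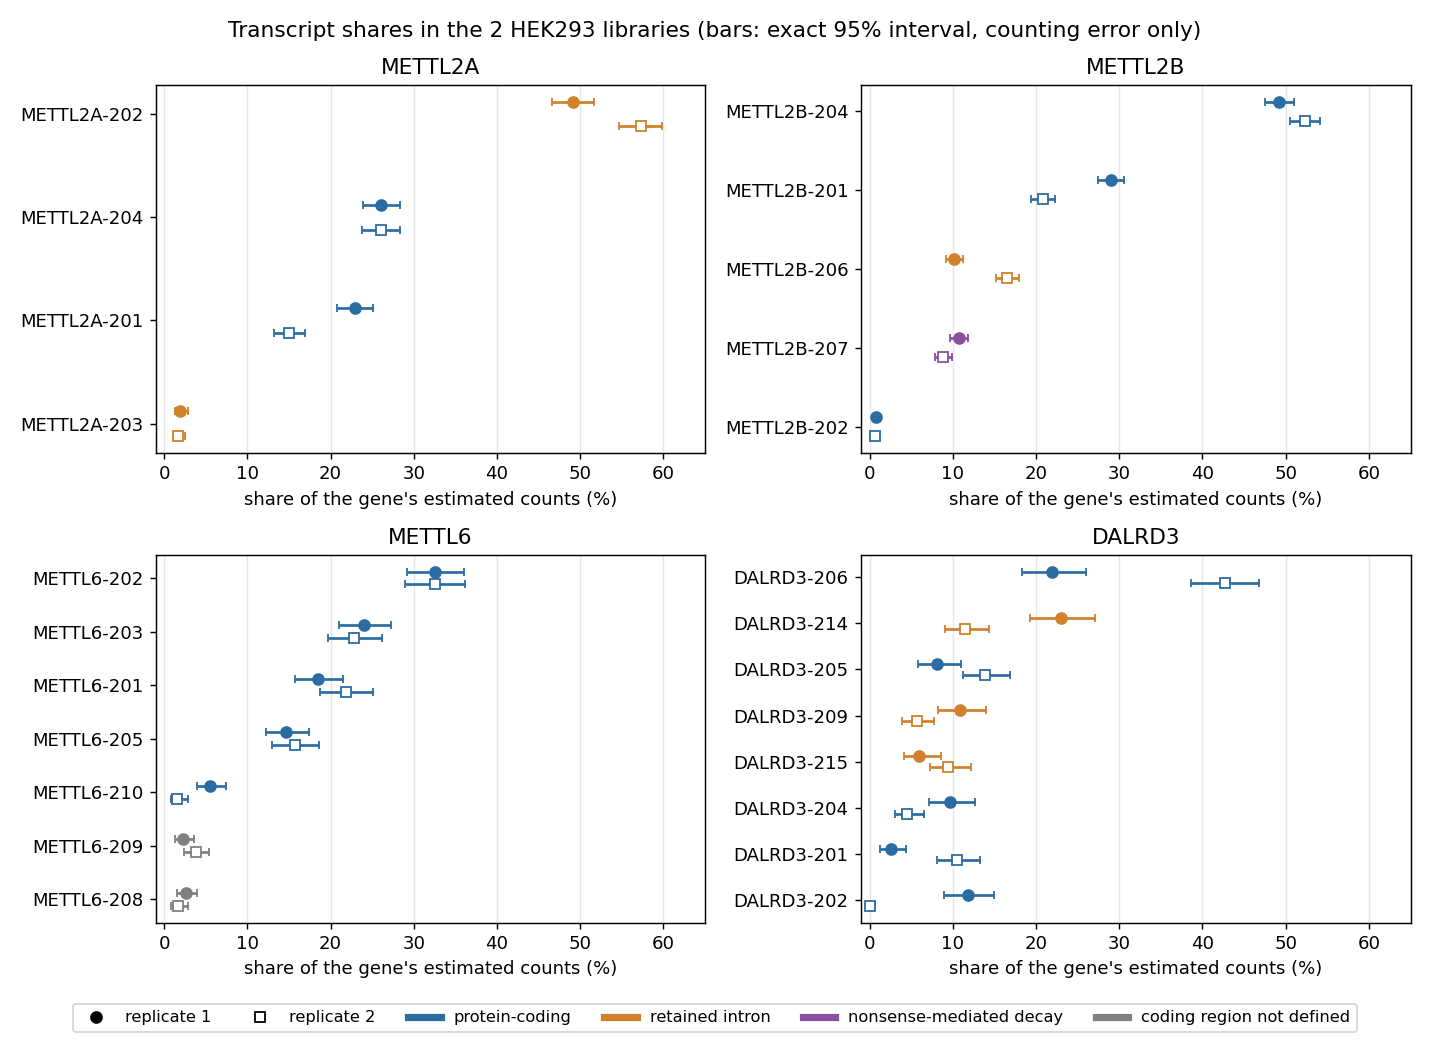
Share of each gene's estimated counts (x axis, %) held by the named transcripts (y axis) in replicate 1 (filled circles) and replicate 2 (open squares), coloured by annotated biotype, with exact 95% counting intervals. METTL2A-202, METTL2B-204 and METTL6-202 were highest in both libraries, and DALRD3-206 and DALRD3-214 changed places.

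The paralogues differed in how their counts were divided among forms that differ at the 5′ end. Some of these forms also differ at the 3′ end, with a 3′ UTR of 2096 nt in METTL2A-204 and 4659 nt in METTL2A-201. In METTL2B-204 and METTL2B-201 it has 4689 nt. The part of 3′ UTR reads in these shares was not tested. The form annotated with intron 1 held 53.2% of METTL2A counts and 13.4% of METTL2B counts. The difference, METTL2B minus METTL2A, was -38.9 percentage points in replicate 1 and -40.7 in replicate 2 (mean -39.8 ± 1.26), larger than the sum of the SDs of 10.2. Skipping of exon 2 went the other way, with 24.8 ± 2.15 points more in METTL2B (23.2 and 26.3, sum of SDs 2.18). Per length this difference was 8.97 points (8.48 and 9.46), still above its sum of SDs of 0.943, and that of intron 1 was -45.4 points. The share with exon 2 spliced in and no other change was higher in METTL2B by 6.05 and 5.77 points, which was within the sum of the SDs of 11.4. Per length that last difference, 5.80 points, came to just above its sum of SDs of 5.79.

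Among spliced transcripts without intron 1, the form without exon 2 outnumbered the MANE Select form in both genes and both libraries. It made up 53.2% and 63.4% of the pair of forms in METTL2A (58.3% ± 7.24) and 63.0% and 71.6% in METTL2B (67.3% ± 6.07). METTL2B was higher than METTL2A in each library, though the means differed by less than the sum of these SDs. Replicate 2 was higher in each gene. Summed over both genes, which leaves out how reads were divided between them, the counts fell 42.8% ± 1.26 to forms without exon 2, 26.2% ± 5.25 to forms with intron 1, 23.0% ± 5.76 to MANE Select forms and 6.64% ± 0.975 to METTL2B-207.

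**Figure D2:**
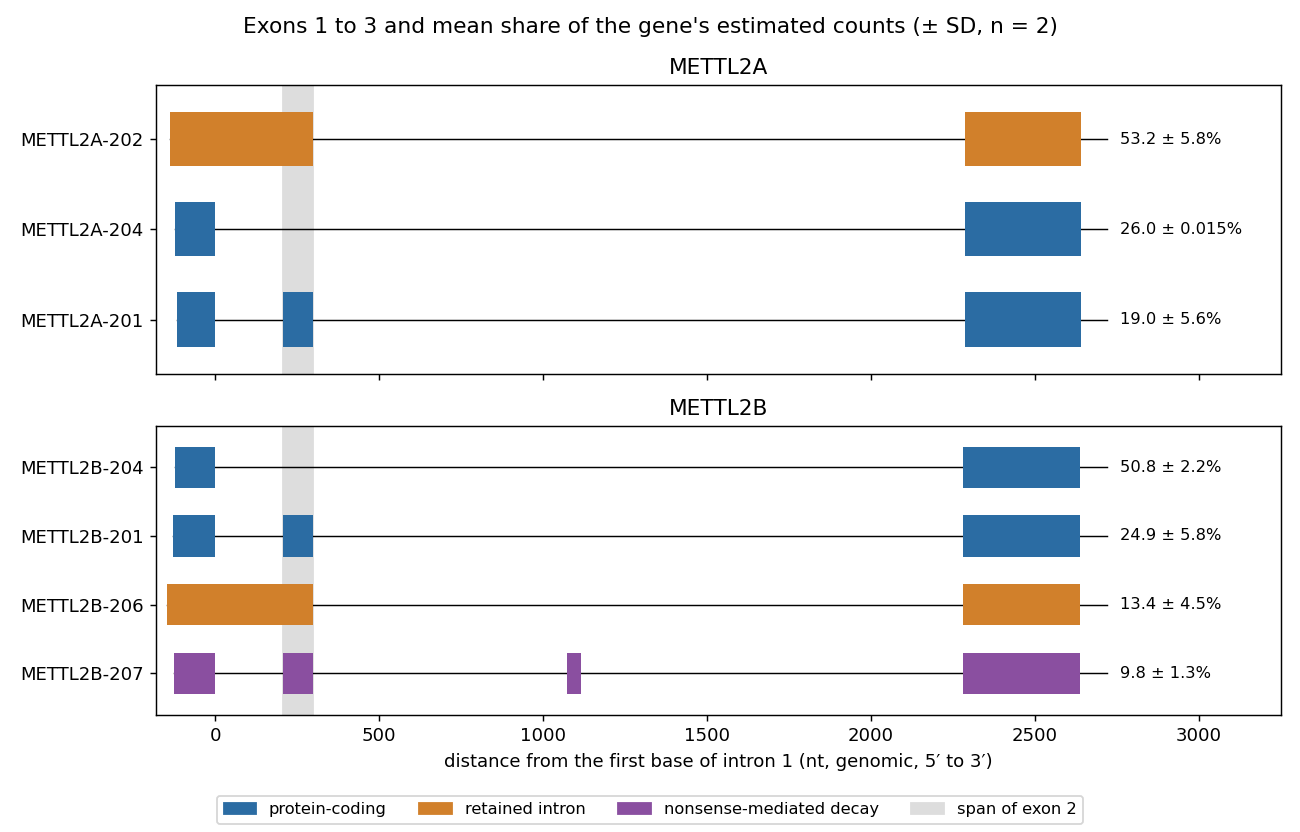
Exons (boxes) of METTL2A and METTL2B transcripts against distance from the first base of intron 1 (x axis, nt), with mean share of the gene ± SD (n = 2) at the right and the span of exon 2 shaded. The intron 1 form held 53.2% of METTL2A and 13.4% of METTL2B, and the form without exon 2 held 26.0% and 50.8%.

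The proteins encoded by the forms without exon 2 have 313 residues in either gene. Their last 311 residues equal those of the full protein, so the first 67 residues of METTL2A and METTL2B are missing. Exon 2 has 92 nt, which is not a multiple of 3, and the start codon near the end of exon 1 lies in another frame than the MANE Select start and joins the usual frame in exon 3. The coding sequences of the paralogues have 1134 nt and differed at 15 positions, of which 5 were in exon 3, 3 each in exons 7 and 9, 2 in exon 1 and 1 each in exons 6 and 8. The 378-residue proteins differed at 6 residues and were 98.4% identical. Against the mitochondrial paralogue METTL8, identity over a global alignment was 50.5% for METTL2A and 50.2% for METTL2B, and against METTL6 it was 33.6% and 34.6%.

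**Figure D3:**
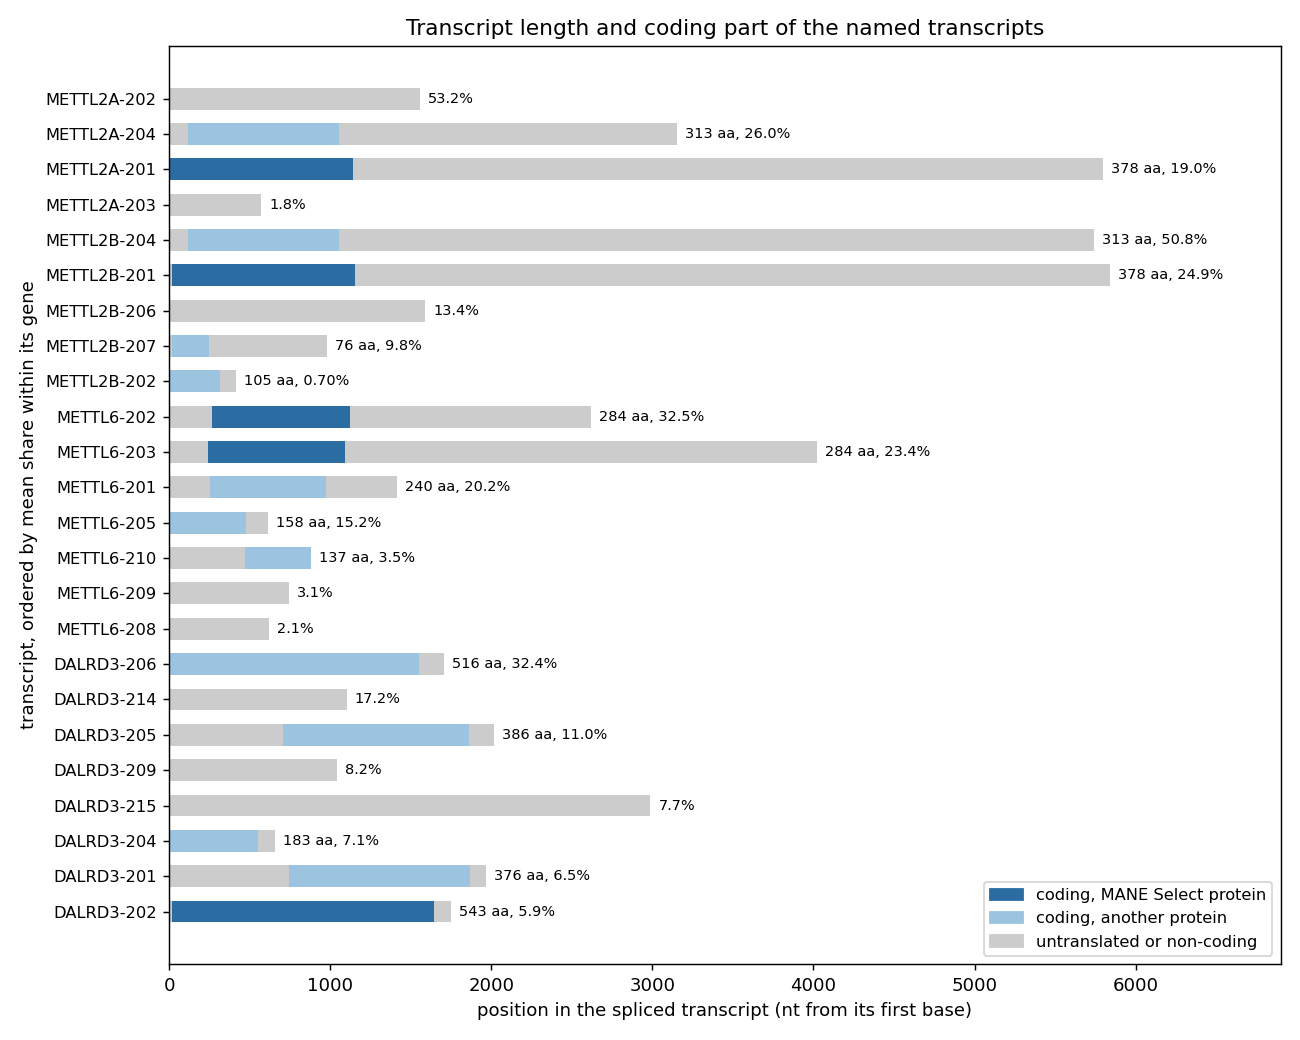
Length of each named transcript (x axis, nt from its first base) with the coding part in blue, dark for the MANE Select protein and light for another protein, and the protein length and mean share of the gene printed at the right. The 378-residue proteins of METTL2A and METTL2B stood on transcripts with 19.0% and 24.9% of counts, and the 284-residue METTL6 protein on a pair with 32.5% and 23.4%.

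How far reads can tell these forms apart was described with all 50-nt words of each transcript, searched in both orientations in all listed transcripts matched to GENCODE v44. METTL2A-202 had 187 of 1507 words found in no other transcript (12.4%), and METTL2B-206 had 192 of 1541 (12.5%). Of the words of METTL2A-202, 43.7% also occur in METTL2B, and of those of METTL2B-206, 42.8% also occur in METTL2A. How the division of such reads between the genes bore on their intron 1 shares was not tested. METTL2A-204 and METTL2B-204 had 17 each, all of them across the junction of exons 1 and 3, where another 32 of 49 words were shared with other transcripts. METTL2B-201 had 0 of 5792 words of its own, against 1723 of 5750 (30.0%) in METTL2A-201. At this word length no part of METTL2B-201 was its own, and 28.0% of its words also occur in METTL2A.

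The lncRNA ENSG00000273184, which overlaps METTL2B by 17131 nt on the same strand, shared 51.4% of the words of METTL2B-207 and 30.9% of those of METTL2B-206. It was listed at 92.7 normalised counts in replicate 1 and 0 in replicate 2. METTL2B-207 was lower and METTL2B-206 higher in replicate 2, and the part of this lncRNA in those values was not tested. METTL2A made up 32.3% ± 0.876 of the summed counts of METTL2A and METTL2B, a log2 ratio of METTL2B to METTL2A of 1.07 ± 0.0578. Per length, METTL2A made up 40.6% and the log2 ratio was 0.55.

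By count, METTL6 was led by its MANE Select transcript, the only one of the 4 genes to be so. The gene (ENSG00000206562, chr3:15381275-15440566, minus strand) had 10 listed transcripts, of which 7 were above 0 in both libraries and 3 at 0 in both, and summed to 783.7 and 621.9 normalised counts (703 ± 114). METTL6-202 held 254.7 and 202.2 normalised counts. Its share was 32.5% in both (29.2 to 36.0 and 29.0 to 36.2, mean 32.5% ± 0.00765), called leading at 1.36-fold and 1.42-fold the next. METTL6-203 encodes the same 284-residue protein but ends in a last exon further downstream, with a 3′ UTR of 2927 nt against 1499 nt. It held 187.9 and 142.2 normalised counts (24.0% and 22.9%, mean 23.4% ± 0.777). The full METTL6 protein was thus assigned 56.5% and 55.4% of the gene's counts (55.9% ± 0.769), the highest of the 4 genes in both libraries.

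A second group of METTL6 transcripts used the 86-nt exon shown above. METTL6-201, with a 240-residue protein that shares the first 177 residues, held 144.9 and 135.8 normalised counts (18.5% and 21.8%, mean 20.2% ± 2.37). METTL6-205, an incomplete model of 158 residues whose longest run in common with the full protein is 84, held 114.8 and 97.8 (14.7% and 15.7%, mean 15.2% ± 0.761). Together these took 33.1% and 37.6% (35.4% ± 3.13), against 55.9% ± 0.769 for transcripts with exon 5 of the MANE Select model, so the latter was higher in both libraries by more than the sum of the SDs. Per length the order turned, with 56.7% ± 4.28 for the alternative exon and 26.5% for exon 5. Only METTL6-208 was above 0 among those annotated with both exons, at 2.13% ± 0.650. METTL6-210, described next, ends in the first 17 nt of the alternative exon and was counted in neither group.

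Among the lower METTL6 transcripts, METTL6-210, whose first exons lie upstream within the span of EAF1, was listed at 43.1 and 9.78 normalised counts (5.50% and 1.57%, mean 3.54% ± 2.78). Of its words, 29.7% also occurred in EAF1, which runs on the opposite strand at 2631 and 2106 normalised counts, and 29.8% in EAF1-AS1. METTL6-209 held 3.05% ± 1.06. Whether strand was used in counting is not given in the sources used here, so reads of EAF1 and METTL6 in this stretch cannot be told apart. METTL6-202, METTL6-203 and METTL6-205 had 48.8%, 60.8% and 48.8% of words found in no other transcript.

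Length bore on the order within METTL2B and METTL6. Long transcripts give more reads per molecule, and the named transcripts ran from 411 nt (METTL2B-202) to 5841 nt (METTL2B-201). After division by GENCODE v44 length, METTL2A-202 still led with 69.8% ± 4.13. METTL2B-204 then had 25.9% ± 0.123, beside 29.5% ± 5.33 for METTL2B-207 and 24.4% ± 7.11 for METTL2B-206, so no METTL2B transcript led in both libraries. In METTL6 the incomplete METTL6-205 led in both with 35.9% ± 1.82, and METTL6-202 had 18.1%. The full protein then had 6.74% of METTL2A, 12.5% of METTL2B and 26.5% of METTL6.

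**Figure D4:**
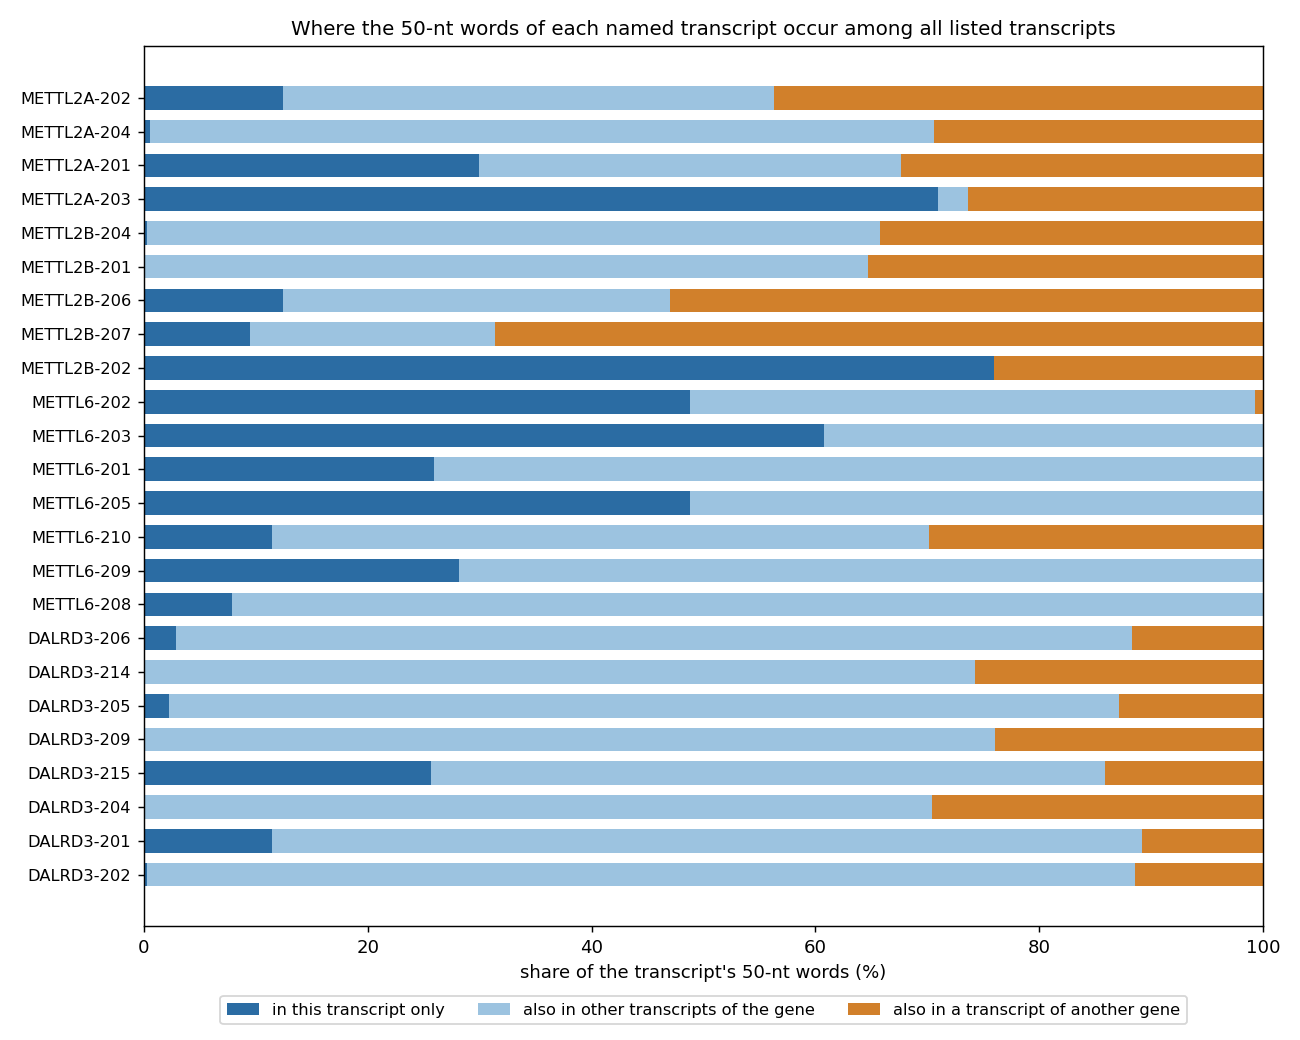
Share of the 50-nt words of each named transcript (x axis, %) found in that transcript only, also in other transcripts of its gene, or also in a transcript of another gene. METTL2B-201, DALRD3-214, DALRD3-209 and DALRD3-204 had no word of their own, and METTL6-203 had 60.8%.

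DALRD3 had no leading transcript, and its libraries disagreed. The gene (ENSG00000178149, chr3:49015488-49022293, minus strand) had 15 listed transcripts, of which 8 were above 0 in both libraries, 4 in 1 and 3 in none. Its total was the steadiest of the 4 relative to its level, at 505.8 and 547.8 normalised counts (527 ± 29.7). DALRD3-206 held 111.1 and 234.1 normalised counts. Its share was 22.0% (18.3 to 26.0) in replicate 1 and 42.7% (38.6 to 46.7) in replicate 2, a mean of 32.4% ± 14.7. The retained-intron form DALRD3-214 held 116.1 and 62.6 (23.0% and 11.4%, mean 17.2% ± 8.15) and was the highest in replicate 1, where its interval (19.3 to 27.1) overlapped that of DALRD3-206. Each library alone named another leader.

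The MANE Select transcript of DALRD3 was assigned counts in 1 library only. DALRD3-202, which encodes the full protein of 543 residues, was listed at 59.6 normalised counts in replicate 1 (11.8%, 8.97 to 14.9) and at 0 in replicate 2, where 3 counts allow up to 0.508%. That limit covers counting error only, and not how RSEM splits reads among transcripts. DALRD3-202 had 4 of 1699 words found in no other transcript (0.235%), and DALRD3-206, which lacks the 26-nt segment, had 47 of 1657 (2.84%). DALRD3-206 encodes 516 residues, of which the first 443 are those of the full protein and the remainder follows another frame, since 26 is not a multiple of 3. Transcripts with the segment in an exon took 78.0% and 57.3% of DALRD3 counts, and DALRD3-206 was the only one spliced past it. The former include 6 transcripts, with 43.3% and 28.4% of counts, that keep the preceding intron 9 whole and use neither splice site. The shares with and without the segment therefore do not compare the splice sites.

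Other DALRD3 forms for shortened proteins also differed between the libraries. DALRD3-205, of 386 residues with 314 in a run shared with the full protein, held 41.3 and 75.7 normalised counts (8.16% and 13.8%, mean 10.99% ± 4.01). DALRD3-201, of 376 residues without the first 167 of the full protein, held 13.01 and 57.24 (2.57% and 10.4%, mean 6.51% ± 5.57). The incomplete DALRD3-204 held 49.1 and 24.9 (9.70% and 4.54%, mean 7.12% ± 3.65). Protein-coding transcripts in all took 54.2% (49.6 to 58.7) and 71.6% (67.8 to 75.2) of DALRD3 (62.9% ± 12.3).

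Retained-intron transcripts held 45.8% and 28.4% of DALRD3 counts (37.1% ± 12.3). Of 7 annotated, 3 were named: DALRD3-214, DALRD3-209 with 54.8 and 30.9 normalised counts (8.24% ± 3.68), and DALRD3-215 with 30.3 and 51.5 (7.69% ± 2.42). They met at the 3′ end of the gene. Intron 9, of 71 nt, was kept by 6 transcripts with 43.3% and 28.4% of counts (35.9% ± 10.5), and intron 10, of 100 nt, by 6 with 49.6% and 41.9% (45.7% ± 5.50). Intron 6, of 100 nt, was kept in 15.9% ± 1.26, and the other introns that any transcript kept had 7.69% to 8.97% on average. DALRD3-205, a protein-coding transcript, keeps intron 10 and not intron 9.

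This 3′ end overlaps WDR6, whose product is known as a partner of a tRNA methyltransferase, by 466 nt on the opposite strand. WDR6 was listed at 2029 and 2159 normalised counts, and it shared between 6.26% (DALRD3-211) and 40.7% (DALRD3-210) of the words of the 12 DALRD3 transcripts above 0. DALRD3-214 and DALRD3-209, both without a word of their own, shared 25.7% and 23.9%. WDR6 was higher in replicate 2 and the retained-intron share of DALRD3 was lower. Intron 10 of DALRD3 overlaps WDR6, whereas intron 9 lies wholly outside the span of WDR6. The transcripts that keep intron 9 still share words with WDR6 elsewhere, and the part of WDR6 reads in their counts was not tested.

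DALRD3 also hosts 2 microRNA hairpins. MIR191 (chr3:49020618-49020709) and MIR425 (chr3:49020148-49020234) lie on the same strand, within the first intron of the transcripts whose first exon lies upstream and outside every DALRD3 exon. Those transcripts, DALRD3-201, DALRD3-205, DALRD3-212 and DALRD3-213, held 54.3 and 133.0 normalised counts. This was 10.7% (8.05 to 13.8) and 24.3% (20.8 to 27.9) of the gene (17.5% ± 9.58). DALRD3-212 and DALRD3-213 were at 0 in both libraries. The first exon of DALRD3-201 and DALRD3-205 lies within the span of NDUFAF3, on the opposite strand. NDUFAF3 was listed at 1145 and 1333 normalised counts, and the part of its reads in these values was not tested. Both hairpins were listed at 0 in both libraries, which does not show whether the mature microRNAs were present. Of the mature forms, 3 had an entry in the RefSeq-based table (GRCh38), shown with the seed, bases 2 to 8, in capitals, since the seeds differ between them.
hsa-miR-191-5p: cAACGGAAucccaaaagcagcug
hsa-miR-191-3p: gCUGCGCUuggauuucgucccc
hsa-miR-425-3p: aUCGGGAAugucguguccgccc

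The 4 genes were set against all matched genes with several transcripts and at least 10 normalised counts in both libraries. Both libraries had the same leading transcript in 3 of the 4, beside 81.9% of 14232 genes, and it was called leading for the same number, beside 76.1%. Per length the same leader was found in 2 of the 4, METTL2A and METTL6, beside 74.5% of genes. With protein-coding transcripts only it was found in all 4, DALRD3 included, beside 83.7% of 11060 genes. These 4 genes are too few to read a departure from all genes. A retained-intron transcript led in both libraries in METTL2A alone among the 4, and in 2.62% of 12743 protein-coding genes. The MANE Select transcript led in both by count in METTL6 alone, and in 53.2% of 12064 genes that have one. It was listed at 0 in exactly 1 library in DALRD3 alone, and in 7.76% of those genes. Among transcripts averaging 10 or more normalised counts, 4 of the 24 in the 4 genes differed over 2-fold between the libraries, beside 32.1% of 58023. These were 3 of 8 in DALRD3 (DALRD3-201, DALRD3-202 and DALRD3-206) and METTL6-210.

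The retained-intron share of METTL2A and DALRD3 lay high among genes. The median of the 12064 genes was 1.18%, and 97.8% of genes lay below the 55.0% of METTL2A and 95.3% below the 37.1% of DALRD3. For METTL2B, 83.9% lay below its 13.4%, and METTL6 had no such transcript. The share of the MANE Select transcript had a median of 50% over genes and was under it in all 4, at 19.0%, 24.9%, 32.5% and 5.89%. The protein-coding share, with a median of 91.5%, was above it only in METTL6 (94.8%). Of 6 other genes of the pathway, namely METTL8, SARS1, TARS1, RARS1 and the demethylase genes ALKBH1 and ALKBH3, 4 kept the same leader in both libraries.

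**Figure D5:**
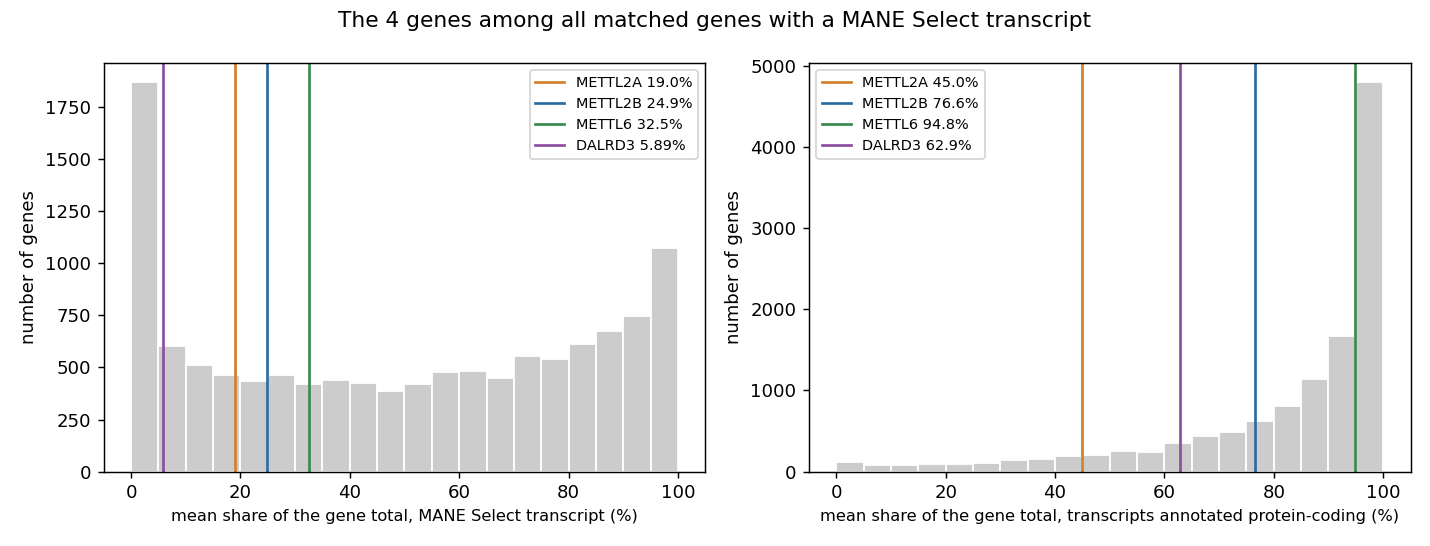
Number of genes (y axis) by mean share of the MANE Select transcript (left) and of all protein-coding transcripts (right, both x axes in % of the gene total), with the 4 genes as coloured lines. All 4 lay below the median of 50% on the left, and METTL2A lay furthest to the left on the right, at 45.0%.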

How the data were processed

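RNA-seq of rRNA-depleted total RNA (TruSeq) came from 2 libraries of 1 group. Per the labels, the authors used FastQC, STAR 2.7.0d, RSEM 1.3.3 and R 3.6.3. The authors made the deposited estimated count of each transcript with RSEM on GRCh38, and it is normalised neither to length nor to depth. The second deposited value, a normalised signal, is that count divided by 1 size factor per library (0.945 and 1.08). How strand was handled and the read length are not given in the sources used here.

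Of 206696 identifiers, 202217 matched GENCODE v44 without version, with 96.9% and 96.8% of counts, and 32 of the 36 member transcripts had the same version. The 4 MANE Select transcripts did not, so their lengths and exons may differ from the models counted. Intervals used counts rounded to whole numbers (SciPy 1.17.1). Proteins were translated from the annotation and aligned globally (Biopython 1.88, BLOSUM62, gap costs 11 and 1). Calls were tested on simulated data.

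Named were transcripts that averaged 5% or more of their gene by count or per length, those for the MANE Select protein, 6 pathway genes and overlapping genes. The members and lists were chosen with earlier results of these data known. Transcript names are Ensembl's. Alternatives were division by length, by length less an assumed 200-nt fragment, protein-coding transcripts only, same-version transcripts only, a filter of 1 normalised count, and each library alone.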

Additional observations from a re-analysis of the deposited data

How the results depend on the processing

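Of 67 alternative values for the shares of the 4 genes and the ratio of METTL2B to METTL2A, 25 stayed within 1 SD and 42 moved further. The log2 ratio kept its sign. Divided by length, or by length less 200 nt, the transcript that leads by count had 69.8% or 69.5% for METTL2A-202, 25.9% or 22.6% for METTL2B-204 and 18.1% or 15.2% for METTL6-202. Per length METTL2B-207 (29.5%) and METTL6-205 (35.9%) had the highest means instead. The full-protein share became 6.74% or 6.07%, 12.5% or 10.9%, and 26.5% or 22.1%, and the protein-coding share 23.6% or 21.7%, 44.7% or 43.4%, and 89.0% or 87.9%, in that order of genes. METTL2A made up 40.6% or 39.8% of the pair, with a log2 ratio of 0.55 or 0.60. With protein-coding transcripts only, METTL2A-202 had 0%, since it is not coding, METTL2B-204 66.4%, METTL6-202 34.3% and DALRD3-206 50.1%, and the full-protein share 41.7%, 32.3% and 59.0%. METTL2A was then 21.8% of the pair (log2 ratio 1.84). With same-version transcripts only, which drops every MANE Select transcript, METTL2A-202 had 65.5%, METTL2B-204 67.7% and METTL6-202 0%, the full-protein share 0%, 0% and 34.7%, the protein-coding share 32.2%, 69.0% and 92.3%, and METTL2A 34.0% of the pair (log2 ratio 0.96). These shifts follow from what each alternative divides by or leaves out.

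Each library alone gave 49.1% to 57.3% for METTL2A-202, 49.3% to 52.3% for METTL2B-204, 32.5% to 32.5% for METTL6-202 and 22.0% to 42.7% for DALRD3-206, which was second to DALRD3-214 (23.0%) in replicate 1. Full-protein shares were 15.0% to 22.9%, 20.8% to 29.0%, 55.4% to 56.5% and 0% to 11.8%, and protein-coding shares 41.1% to 48.9%, 74.2% to 79.0%, 94.5% to 95.1% and 54.2% to 71.6%. The pair gave 31.7% to 32.9% and log2 1.03 to 1.11. With 2 libraries, 1 alone always lies within 1 SD of the mean. Genes with the same leader numbered 10604 after division by length, 9252 of 11060 with protein-coding transcripts only and 9464 of 11207 at a total of at least 100. No paired analysis was possible because there was 1 group. Depth limits DALRD3 most, where 3 counts are 0.628% and 0.508% of the gene.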

Other observations

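Other genes of m3C biology differed in how far 1 transcript held the gene. RARS1-201 held 93.5% ± 0.147 (SD, n = 2) and SARS1-201 86.5% ± 2.55 of the counts of the arginyl- and seryl-tRNA synthetase genes, and both are MANE Select transcripts. In TARS1, for threonyl-tRNA synthetase, TARS1-204 led with 49.3% ± 15.3 and the MANE Select transcript had 2.15% ± 0.415. ALKBH3-201, of a demethylase gene, was highest in both libraries with 32.1% ± 1.68 but was not called leading. ALKBH1 and METTL8 had a different highest transcript in each library.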
